A study of Mus musculus with 2 samples.

Results

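Rtl1 lies on the minus strand of mouse chromosome 12, and a group of microRNA (miRNA) hairpin genes lies on the plus strand opposite to it or next to it. Members were the plus-strand genes Mir337, Mir540, Mir665, Mir431, Mir433, Mir127, Mir434 and Mir136, found by symbol in GENCODE M21, which gives 8 of the 2202 miRNA genes in the tables. All 8 had enough counts to be tested. The data are miRNA sequencing of RNA under 30 nt from the left cerebral cortex of males of the strain B6CASTF1/J, aged 4 days, an F1 hybrid of C57BL/6J and CAST/EiJ. The study holds 1 group with 2 libraries, labelled biological replicates 1 and 2 and called library 1 and library 2 here, with no treatment. The labels number the males differently and quote the same donor identifier for both. P-values therefore measure only what separates these 2 libraries, which may be technical. Own-strand miRNA counts were 2999032 for library 1 and 3577964 for library 2, and the counts do not separate the parental alleles.

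Rtl1 is a gene derived from a retrotransposon and is needed in placenta and fetal muscle. It belongs to the imprinted Dlk1-Dio3 region, where Dlk1, Rtl1 and Dio3 are expressed from the paternal chromosome and the noncoding RNAs and miRNAs from the maternal one. The miRNAs transcribed opposite to Rtl1 match its mRNA perfectly and are known to guide its cleavage, while each can also pair through its seed, bases 2 to 8, with other mRNAs.

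The hairpins span 9.60 kb of mm10 (chr12:109585789-109595388). Mir431, Mir433, Mir127, Mir434 and Mir136 lie wholly opposite to the coding sequence in exon 2 of Rtl1 (ENSMUSG00000085925.3, gene at chr12:109589193-109600330). Mir337, Mir540 and Mir665 lie outside that gene model, with a gap of 2785 nt between the end of Mir665 and the gene. In the longer RefSeq model of the GRCm38.p6 assembly (chr12:109564900-109604418) all 8 lie within the gene bounds. No GENCODE M21 gene overlaps any of the 8 on their own strand. The label of antisense to Rtl1 thus holds at the exon level for 5 hairpins, and the other 3 are neighbours in this annotation.

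The mature arms are shown for the hairpins opposite to the Rtl1 exon, because these can pair with the GENCODE M21 transcript of Rtl1 along their whole length. Transcripts of the longer RefSeq model were not searched. The arms are RefSeq sequences of GRCm38.p6, written 5′ to 3′ with the seed in capitals, and all 8 hairpins were matched by symbol.
miR-431-5p: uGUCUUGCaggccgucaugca
miR-431-3p: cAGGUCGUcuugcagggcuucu
miR-433-5p: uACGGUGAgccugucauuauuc
miR-433-3p: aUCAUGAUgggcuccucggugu
miR-127-5p: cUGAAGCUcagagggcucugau
miR-127-3p: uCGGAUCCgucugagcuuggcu
miR-434-5p: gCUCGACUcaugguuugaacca
miR-434-3p: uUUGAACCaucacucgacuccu
miR-136-5p: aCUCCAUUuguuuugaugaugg
miR-136-3p: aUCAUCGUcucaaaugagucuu

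Each of these 10 arms has exactly 1 perfect complement in the 6358 nt Rtl1 transcript, and none of the 6 arms of Mir337, Mir540 and Mir665 has one. The sites all fall in the coding sequence of 1744 codons, from codons 6 to 13 for miR-136-3p near its start to codons 1642 to 1649 for miR-431-5p near its end. Sites on the Rtl1 mRNA are shown for the 3 hairpins whose counts are compared most closely below, read from the GENCODE M21 transcript as DNA letters, with the bases opposite the seed in capitals.
Site of miR-431-5p, codons 1642 to 1649: tgcatgacggcctGCAAGACa
Site of miR-433-3p, codons 1201 to 1208: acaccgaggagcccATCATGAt
Site of miR-127-3p, codons 832 to 839: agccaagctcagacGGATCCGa

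Although the hairpins lie close together, they are not copies of each other. The 16 member arms carry 16 different seeds, and 15 of them (93.8%) share their seed with no other mature miRNA in the table, against 72.1% of all 1679 mature names. The exception is miR-540-3p, which shares its seed with miR-6915-5p. The longest stretch that any member arm shares with a hairpin other than its own is 12 nt, between miR-433-5p and Mir3062. In the minimum free energy fold (RNAfold), the member hairpins had a median of -47.4 kcal/mol per 100 nt, against -40.6 for 1005 mouse hairpins. Mir540 had the lowest energy (-61.0) and Mir433, the longest hairpin at 124 nt, the highest (-36.1).

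The libraries stand apart in markers of other tissues, and this precedes every comparison between them. Muscle markers summed to 73.0 CPM (own-strand counts per 1000000 own-strand miRNA counts) in library 1 and 157119 CPM in library 2. Mir206 alone held 70.7 and 156302 CPM of these sums, and 3 and 8 of the 9 muscle markers were detected. Hox cluster markers of hindbrain and trunk summed to 228 and 19112 CPM, with 4 and 5 of 5 detected. Neuron markers summed to 42717 and 1320 CPM, with 15 and 11 of 15 detected, and the 3 copies of Mir124a were at 0 in library 2. Several listed markers, such as Mir124a, have more than 1 gene copy. A read that fits several copies counts for no gene here. The zeros, detection counts and sums may therefore miss mature miRNAs that copies share, in both libraries. In the marker sums library 2 goes against its cortex label, and the values of each library are given separately throughout. The part of these marker differences in the results on the Rtl1 hairpins was not tested. In such bulk samples fewer cells of a type and less RNA per cell cannot be told apart.

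The hairpins held a larger part of library 2. They had 122435 counts, 4.08% of miRNA counts (exact 95% Clopper-Pearson binomial interval 4.06 to 4.10), in library 1. They had 371695 counts, 10.4% (10.4 to 10.4), in library 2, which gives 7.24% ± 4.46 (SD, n = 2). Here and below, intervals cover counting error only, and may be too narrow even for that, since PCR copies were not told apart from molecules. Set against all 67 miRNA genes between Dlk1 and Dio3, the hairpins held 31.0% of the counts of that region in library 1 and 34.6% in library 2. That region as a whole held 13.2% and 30.0% of miRNA counts. Its stretch from Mir379 to Mir410 held 7.33% and 18.6%, a 2.54-fold difference, and the hairpins also differed 2.54-fold. The larger part in library 2 was thus not particular to the hairpins. The 4 genes between Dlk1 and Mir337 went the other way, from 1.21% to 0.687%. The 5 hairpins opposite to the Rtl1 exon held 3.73% and 8.75% of miRNA counts, and the 3 neighbours held 0.349% and 1.64%. In the same libraries the muscle markers held 0.00730% and 15.7% and the neuron markers 4.27% and 0.132% of counts. With Mir206, the most abundant muscle marker, left out of the library sizes, a choice made after seeing the data, the hairpins held 4.08% and 12.3%.

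Mir127 led the group in both libraries, and the hairpin below it differed between them. Mir127 (ENSMUSG00000070076.2, chr12:109592846-109592915), which is needed for normal placental development, had 73218 counts (24414 CPM) in library 1 and 175530 counts (49059 CPM) in library 2. Among all miRNA genes it ranked 8 and 5 by CPM. In library 1 the next was Mir433 and then Mir431, while in library 2 the next was Mir431, and Mir434, Mir337 and then Mir433 followed.

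Mir431 (ENSMUSG00000070080.1, chr12:109590447-109590537), known from muscle progenitors and from growing axons, had 7280 counts (2427 CPM) and 79452 counts (22206 CPM). Mir433 (ENSMUSG00000070072.1, chr12:109591715-109591838), whose gene begins 1268 nt from that of Mir431, had 28240 counts (9416 CPM) and 25968 counts (7258 CPM). Mir433 was the only hairpin of the 8 with a lower CPM in library 2. Mir434 (ENSMUSG00000070133.1, chr12:109594506-109594599) had 3002 counts (1001 CPM) and 30145 counts (8425 CPM). Mir136 (ENSMUSG00000104858.1, chr12:109595327-109595388), at the end of the group nearest the Rtl1 start codon, had 225 counts (75.0 CPM) and 1895 counts (530 CPM). It was the least abundant of the group in both libraries.

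Among the 8 hairpins, the 3 neighbours of the Rtl1 exon were of middle to low level. Mir337 (ENSMUSG00000065526.4, chr12:109585789-109585885) had 5736 counts (1913 CPM) and 29827 counts (8336 CPM). Mir540 (ENSMUSG00000072900.2, chr12:109586080-109586146) had 4072 counts (1358 CPM) and 25046 counts (7000 CPM). Mir665 (ENSMUSG00000076313.1, chr12:109586314-109586407) had 662 counts (221 CPM) and 3832 counts (1071 CPM). All 3 were higher in CPM in library 2, and Mir665 was the seventh of the 8 in both.

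**Figure D1:**
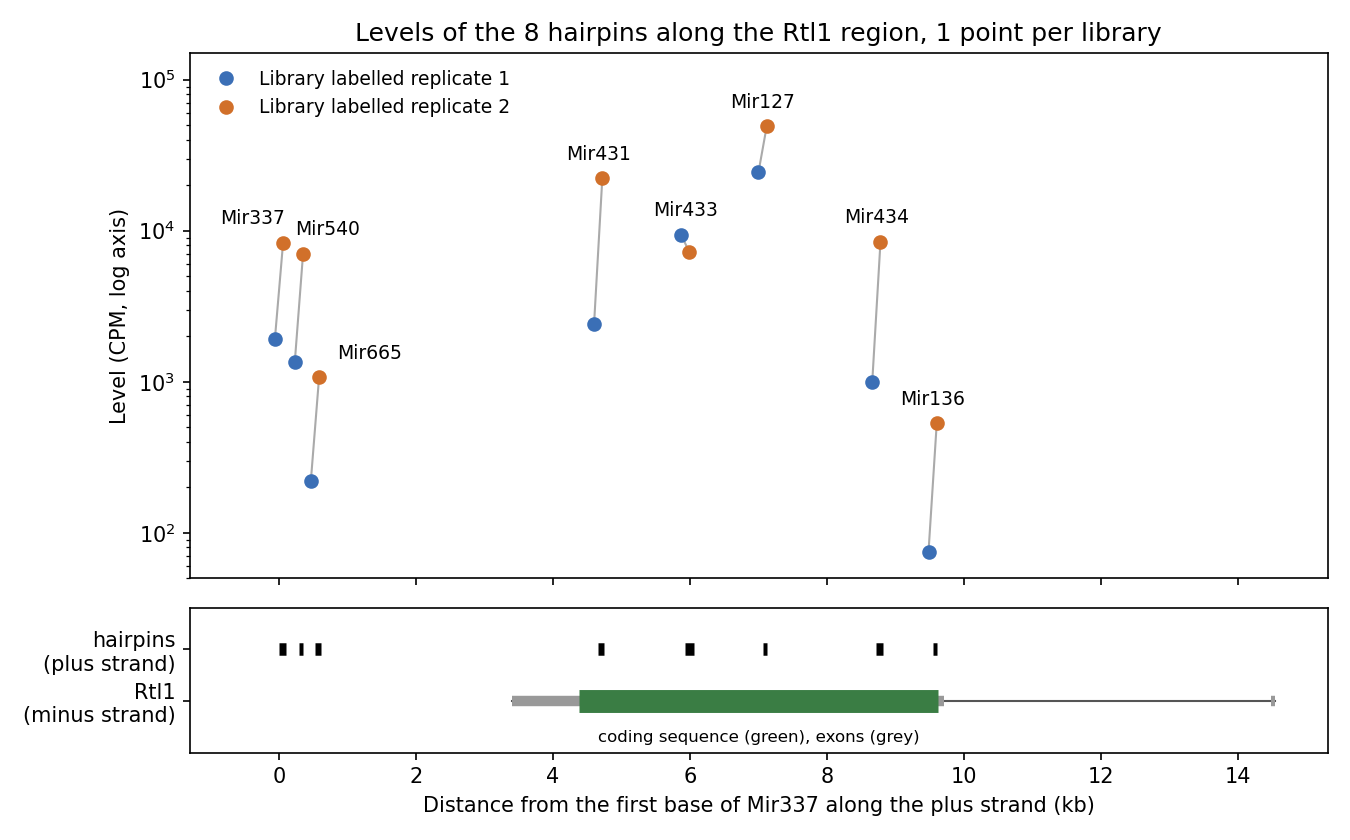
Level of each hairpin in CPM on a log axis against its distance in kb from the first base of Mir337, with 1 point per library joined by a grey line, above a map of the hairpins and of Rtl1. Mir127 is the highest in both libraries (24414 and 49059 CPM), and Mir433 is the only hairpin whose point is lower in library 2 (9416 and 7258 CPM).

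Ordered by mean CPM, the hairpins run Mir127, Mir431, Mir433, Mir337, Mir434, Mir540, Mir665 and Mir136. Neighbours in that order were called apart where both libraries ordered them alike and their exact intervals did not overlap. This held for Mir127 over Mir431, for Mir540 over Mir665 and for Mir665 over Mir136. The other 4 neighbouring pairs changed places between the libraries, and the intervals of Mir337 and Mir434 overlapped in library 2. A small RNA read is a whole mature molecule, so CPM was not divided by length for this order. Per 100 nt of hairpin Mir127 was again first and Mir136 last, with 34877 and 121 CPM in library 1 and 70084 and 854 CPM in library 2. On that scale Mir540 moved above Mir337 in both libraries.

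Shares within the group need no scaling between the libraries, and they show that the hairpins did not keep their proportions. Mir433 made up 23.1% of the counts of the 8 hairpins (exact 95% interval 22.8 to 23.3) in library 1 and 6.99% (6.90 to 7.07) in library 2. Mir431 made up 5.95% (5.81 to 6.08) and 21.4% (21.2 to 21.5). The second most abundant hairpin was thus Mir433 in library 1 and Mir431 in library 2. Mir127 made up 59.8% (59.5 to 60.1) and 47.2% (47.1 to 47.4). The other 5 hairpins had larger shares in library 2, running from 0.184% for Mir136 to 4.68% for Mir337 in library 1 and from 0.510% for Mir136 to 8.11% for Mir434 in library 2.

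**Figure D2:**
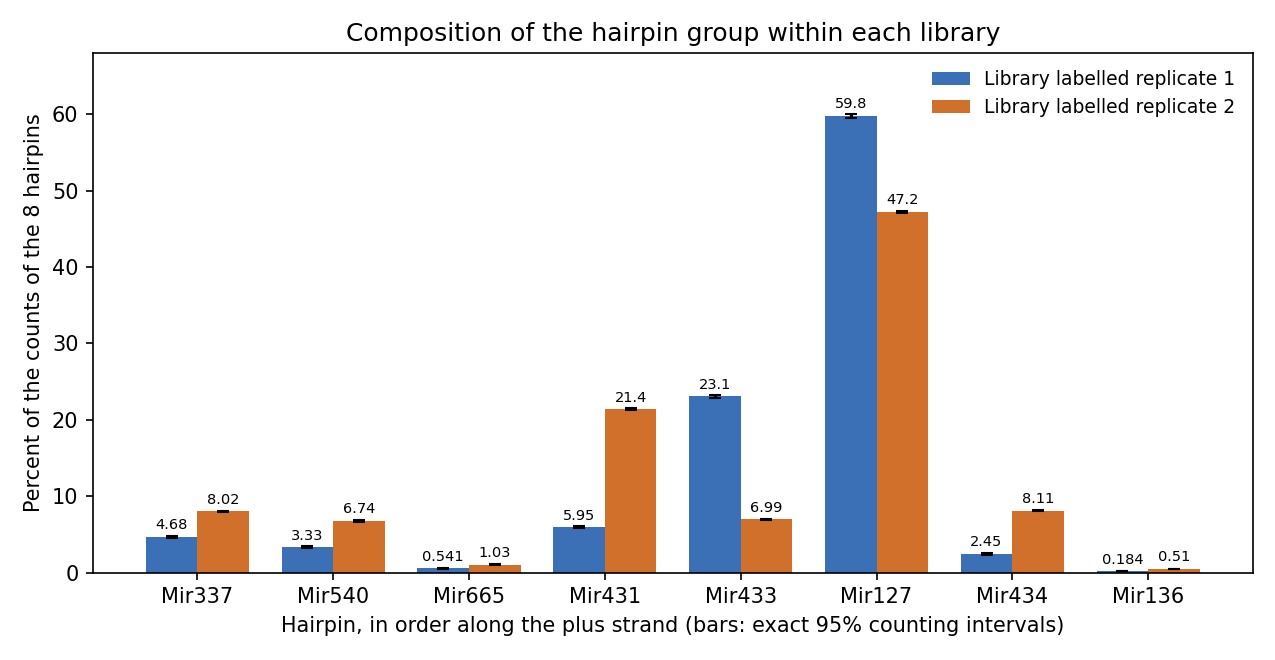
Percent of the counts of the 8 hairpins given to each hairpin, with 1 bar per library and exact 95% counting intervals as error bars, in order along the plus strand. Mir433 has 23.1% in library 1 and 6.99% in library 2, and Mir431 has 5.95% and 21.4%.

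Ratios of one hairpin to another put numbers on this. Of the 28 pairs of hairpins, the ratio that differed most between the libraries was Mir431 to Mir433, at 0.258 and 3.06, an 11.9-fold difference between genes whose starts are 1268 nt apart. Mir433 to Mir127, 1131 nt apart, stood at 0.386 and 0.148, a 2.61-fold difference. By contrast, the ratios among the 3 neighbours Mir337, Mir540 and Mir665 differed by 1.06-fold to 1.18-fold, and those among Mir431, Mir434 and Mir136 by 1.09-fold to 1.30-fold. The members of the latter set are not adjacent, since Mir433 and Mir127 lie between Mir431 and Mir434. Both sets were picked after their values were seen and have no test.

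The median difference over the 28 pairs was 2.01-fold. Over 666 pairs of 37 other genes between Dlk1 and Dio3 with at least 1000 counts summed it was 4.16-fold. Over 17205 pairs of all 186 genes at that depth it was 8.87-fold. Pairs share genes, so these medians are descriptions only.

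Set against all miRNA genes, every hairpin was higher in library 2 with TMM scaling, which centres the libraries on the bulk of genes. By the binomial test (exact, two-sided, with Benjamini-Hochberg adjustment), 8 of 8 hairpins passed as higher and 0 as lower, where 40.6% of the 463 tested genes passed as higher and 39.3% as lower. With total counts 7 passed as higher and 1, Mir433, as lower, where 26.3% and 63.7% of all genes did. In either direction 79.9% of all genes passed with TMM and 90.1% with total counts, so passing alone sets no gene apart. It is a test of 1 library against another under counting error, not of conditions. Both libraries are replicates of the same group, and with them taken as such edgeR's common coefficient of variation was 1.24 over the tested genes, a spread that includes the hairpins' own differences.

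The size of the ratios differed among the hairpins. As a log2 ratio with a prior of 1 CPM, library 2 over library 1, the hairpins had a median of 3.72 with TMM and 2.32 with total counts. All tested genes had medians of -0.26 and -1.35. TMM shifts an abundant gene by 1.40 relative to total counts, so each value is given on a named scale. On the fold scale with total counts and no prior, Mir431 was 9.15-fold higher in library 2 (exact 95% interval 8.93 to 9.37) and Mir434 was 8.42-fold higher (8.11 to 8.74). Mir136 followed at 7.06-fold (6.15 to 8.14). These 3 had the highest ratios of the group.

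Mir540 was 5.16-fold higher (4.99 to 5.33), Mir665 4.85-fold (4.47 to 5.28) and Mir337 4.36-fold (4.24 to 4.48), so the 3 neighbours of the Rtl1 exon lay close together. Mir127 was 2.01-fold higher (1.99 to 2.03). Mir433 had a ratio of 0.771 (0.758 to 0.784) with total counts, a log2 ratio of -0.38, but 1.03 with TMM, so its direction turns with the scaling. The direction of the other 7 was the same under both scalings. By rank among 463 log2 ratios with TMM, counted from the highest, Mir431 stood at 33 and Mir433 at 153.

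**Figure D3:**
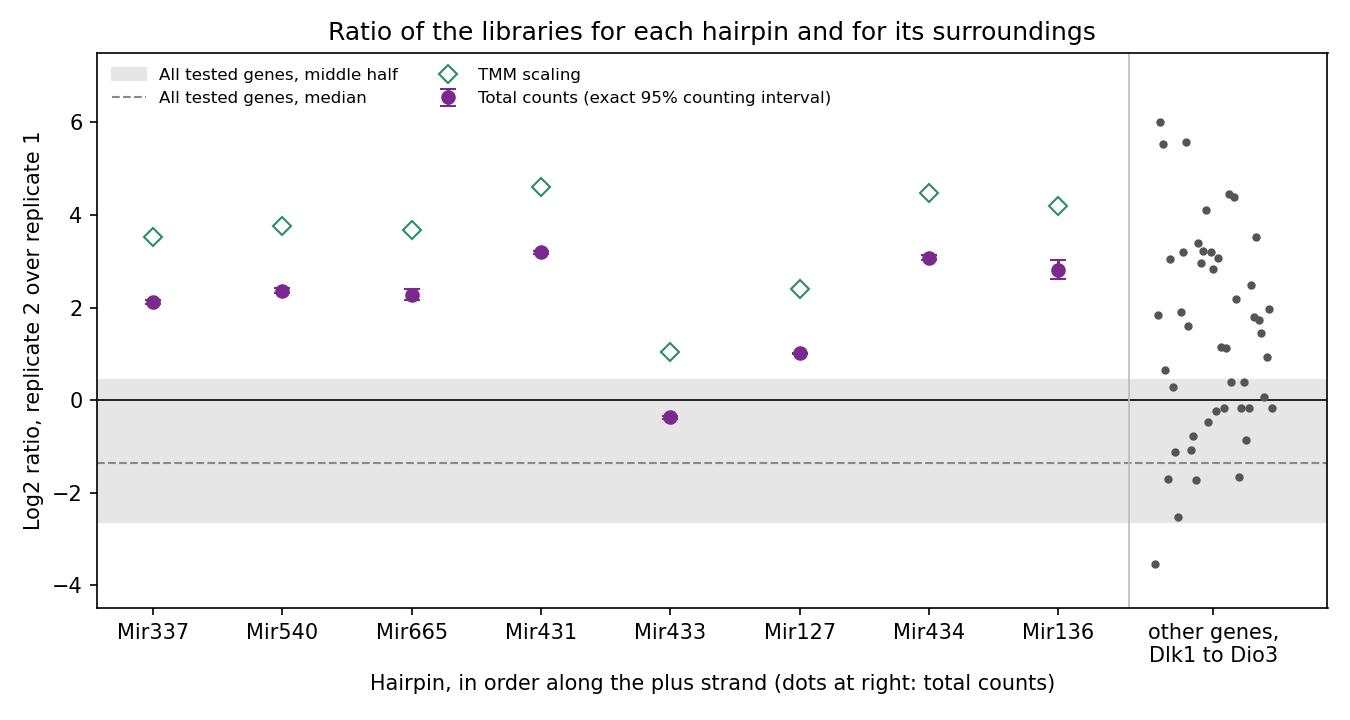
Log2 ratio of library 2 over library 1 for each hairpin, with total counts (filled points, exact 95% counting intervals) and with TMM (open diamonds), and for 47 other tested genes between Dlk1 and Dio3 (dots, total counts). The grey band is the middle 50% of all 463 tested genes with total counts and the dashed line their median of -1.35. Mir433 lies below 0 with total counts (-0.38) and above it with TMM (1.03), and the other hairpins lie above 0 under both.

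The rest of the imprinted region gives the setting. Of 47 other tested miRNA genes between Dlk1 and Dio3, with TMM 40 passed as higher in library 2 and 2 as lower, against 30 and 14 with total counts (binomial test, adjusted over all genes). Over all 463 tested genes, 40.6% passed as higher and 39.3% as lower with TMM, and 26.3% and 63.7% with total counts. The log2 ratios of the 47 genes had medians of 2.86 (TMM) and 1.46 (total counts). The hairpins' log2 ratios with TMM had an SD of 1.20 over genes, against 2.21 for these 47 genes and 2.95 for all tested genes. Depths were unlike, since some of the 47, such as Mir3070a with 7 and 15 counts, were far shallower than any hairpin. With a filter of at least 100 counts summed, the SDs were 1.20 for the hairpins, 2.19 for 41 other genes of the region and 3.41 for 295 tested genes.

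Of the 4 genes between Dlk1 and Mir337, 3 had counts, and their ratios ran from far below to far above those of the hairpins. Mir493 (chr12:109580233-109580315) had 210 and 16283 counts and was 65.0-fold higher in library 2 by total counts (56.7 to 74.8). Mir770 (chr12:109563692-109563785), in the Meg3 gene, had 34832 and 3565 counts, a ratio of 0.0858 (0.0829 to 0.0888). Mir673 (chr12:109571990-109572080), between them and named after its values were seen, had 1105 and 4719 counts, a ratio of 3.58 (3.35 to 3.83), which lies between those of Mir127 and Mir337. Beyond Mir136, Mir487b (chr12:109727333-109727414) had 81453 and 127077 counts, a ratio of 1.31 (1.30 to 1.32). Mir411 (chr12:109710175-109710256) had 18175 and 198300 counts, a ratio of 9.15 (9.01 to 9.29), next to that of Mir431.

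Over these 2 libraries, the non-member genes whose log2 ratio with TMM lay nearest the hairpins' median of 3.72 were Mir143 (3.73), Mir23a (3.63) and Mir500 (3.82), among 178 genes with at least 1000 counts. Mir143 is abundant in smooth muscle, and any link of that to the hairpins' ratios was not tested. With 2 libraries, this likeness rests on a single ratio per gene.

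Genes lying between the hairpins had few reads. Mir3070a had 7 and 15 counts and Mir3070b 26 and 7, and these genes yield the same annotated miR-3070-5p. Reads that fit both genes count for neither, so the counts of both may be too low. With TMM Mir3070a passed as higher and Mir3070b did not pass (log2 ratios 1.68 and -0.60), while with total counts Mir3070b passed as lower and Mir3070a did not pass (-1.71 and 0.64). Mir432, which lies opposite to the Rtl1 exon like its neighbours Mir434 and Mir136, had 0 counts in both libraries. A count of 0 allows up to 1.00 CPM in library 1 and 0.838 CPM in library 2, both below the level of Mir136.

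On the Rtl1 strand itself 2 further miRNA genes are annotated, and both had reads in library 2 alone. Mir3544 (chr12:109585813-109585873, minus strand) lies wholly within the span of Mir337 on the other strand, and Mir3071 (chr12:109595318-109595397, minus strand) covers all of Mir136 and is in the Rtl1 coding exon in the sense direction. Arms of the overlapping pairs are shown because each pair comes from the same bases read in opposite directions, in RefSeq sequences of GRCm38.p6 with the seed in capitals.
miR-337-3p: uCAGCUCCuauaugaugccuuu
miR-3544-5p: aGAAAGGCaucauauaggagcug
miR-3071-3p: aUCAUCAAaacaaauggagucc
Mir3544 had 0 and 162 counts, and Mir3071 had 0 and 26 counts, of which the latter can be set beside miR-136-5p above. With the 0 set to the limit of 3 counts per library, the ratio by total counts came to 45.3 for Mir3544 and 7.26 for Mir3071. With the counting error of library 2 included as well, the exact 95% intervals put Mir3544 at least 36.4-fold and Mir3071 at least 5.50-fold higher. In library 2, reads of Mir3544 were 0.540% (0.460 to 0.630) of those of the Mir337 and Mir3544 pair, and reads of Mir3071 were 1.35% (0.886 to 1.98) of those of the Mir136 and Mir3071 pair. In library 1 a count of 0 allowed up to 0.0523% of the Mir337 count and 1.33% of the Mir136 count. As a share of its pair, the interval of Mir3544 in library 2 lay above what the depth of library 1 allowed, and the interval of Mir3071 included it. Both genes passed as higher under TMM and under total counts.

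Counting without regard to strand removed exactly these overlapped hairpins. In the column of either-strand counts, which leaves reads that fall on 2 genes unassigned, Mir337 had 0 and 15 counts in place of 5736 and 29827. Mir136 had 0 and 0 in place of 225 and 1895. The other 6 hairpins had their own-strand counts in full in both libraries, to within 5 reads. Across the group the either-strand column kept 116474 and 339998 counts.

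**Figure D4:**
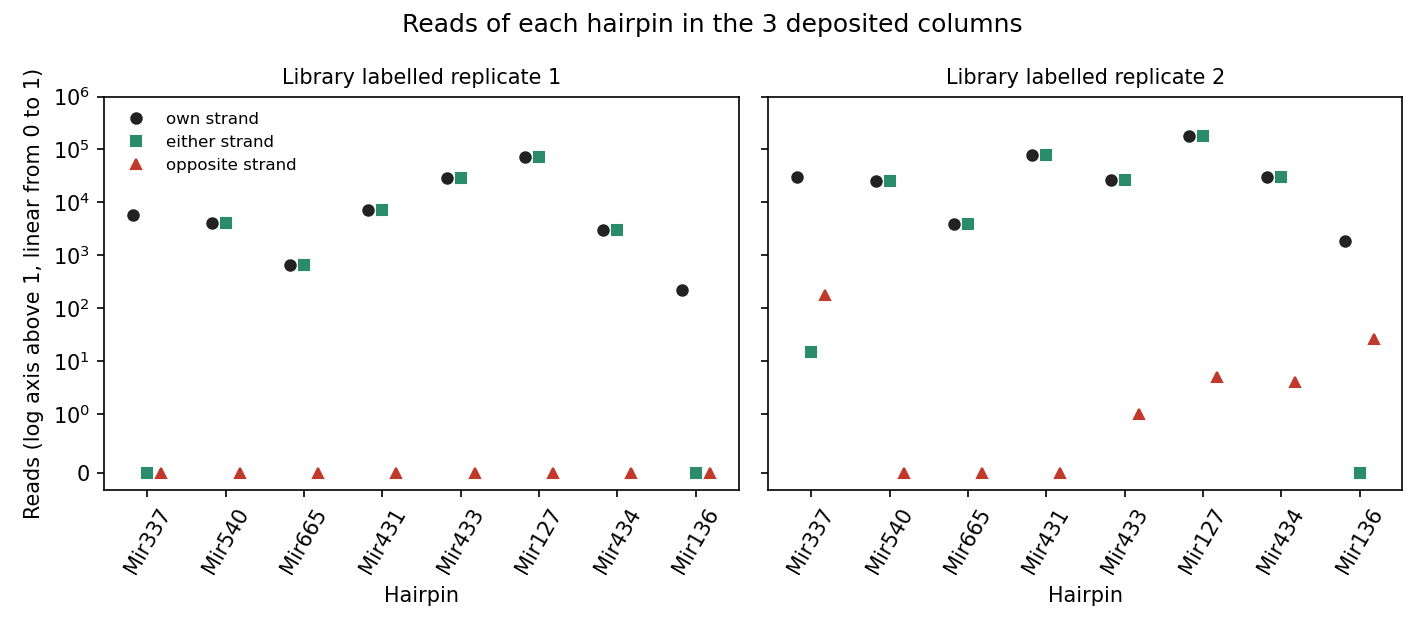
Reads of each hairpin in the own-strand, either-strand and opposite-strand columns of the deposited tables, with 1 panel per library and a log axis above 1 read. The either-strand value drops to 0 or 15 at Mir337 and to 0 at Mir136, and opposite-strand reads appear in library 2 alone (177 at Mir337 and 26 at Mir136).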

How the data were processed

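The members and lists were chosen with earlier results of these data known. The authors deposited raw counts of reads per miRNA gene, 1 table per library, on the mm10 assembly and the M21 annotation of GENCODE, per the text files deposited beside the tables. Which aligner and counter made them is not given in the sources used here. Each table has 3 columns laid out as in STAR's gene counts, for reads on either, the own and the opposite strand, and in that layout a read with several placements counts for no gene. Such reads were 46.1% and 39.8% of all reads, unplaced reads 18.4% and 6.11% and reads outside miRNA genes 5.55% and 1.47%. They stayed out of library sizes. Counts are per hairpin, so arms are not separated.

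Own-strand counts were scaled by TMM (factors 1.63 and 0.615, edgeR 4.0.16). Each of 463 genes with at least 10 counts summed got an exact two-sided binomial test of one library against the other, adjusted by Benjamini-Hochberg over all of them, with 0.05 as the threshold. With 1 library in each arm edgeR's quasi-likelihood test could not be fitted. Adjusted p-values of the 8 hairpins with TMM were too small for the software to write. The test was run on simulated Poisson counts for this comparison (447 genes). It called 79.2% of genes changed 2-fold, 100.0% changed 8-fold and 2.70% of unchanged genes, with no spread beyond counting error.

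Named were the members, all miRNA genes between or over them, the 2 most abundant genes of the Mir379 to Mir410 stretch and the 2 most abundant of the remaining region by mean CPM, and the 3 nearest by log2 ratio. Alternatives were total counts, DESeq2 1.42.0 size factors, either-strand counts, other filters and priors, a negative binomial test, removal of abundant genes, and each library alone. The negative binomial test had its coefficient of variation fixed at 0.1. Sequences came from RefSeq tables and the GENCODE M21 transcript, folds from RNAfold 2.7.2. Other software was R 4.3.3, Python 3.11.15, scipy 1.17.1 and matplotlib 3.10.9.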

Additional observations from a re-analysis of the deposited data

Results flagged for a closer look

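Reads on the strand opposite to the hairpins lie outside the main measurement, which uses the own strand, and 4 values exceeded the 3 counts that a count of 0 allows, all in library 2. Mir337 had 177 opposite-strand counts, of which 162 were also given to Mir3544 and 15 were not. Mir136 had 26, all given to Mir3071. Mir127 had 5 and Mir434 had 4, with no miRNA gene annotated on the other strand there. Mir433 had 1, and no opposite-strand read was seen at Mir540, Mir665 or Mir431. In library 1 all 8 hairpins had 0. The same libraries differ in the muscle, Hox and neuron markers, whose part in these counts was not tested.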

How the results depend on the processing

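With total counts in place of TMM, Mir433 turned from a log2 ratio of 1.03 to -0.38, hairpins passing as lower went from 0 to 1, the hairpins' median log2 ratio from 3.72 to 2.32, and other Dlk1-Dio3 genes passing as lower from 2 to 14. Over all tested genes the share passing as lower went from 39.3% to 63.7% with the same change. Leaving out either-strand counts of Mir337 and Mir136, 69 of the 70 log2 ratios of hairpins under the alternatives kept direction and call, and Mir433 was the exception. Part of this was fixed in advance. The negative binomial test took its log2 ratios from the main fit, and the prior of 0.1 CPM left the p-values unchanged. That test set the coefficient of variation at 0.1, far below the 1.24 between the replicates, so it cannot show whether calls hold at that spread. Either-strand counting gave Mir136 no test, and at Mir337 it compared 0 with 15 counts, as many as its opposite-strand reads beyond Mir3544, so it tests nothing of these hairpins. The ratios of Mir433 ranged from -0.38 to 1.19 and those of Mir431 from 3.19 to 4.76. Hairpins at the same rank as by mean CPM were 5 of 8 per 100 nt and 4 of 8 with either-strand counts. They were 4 and 6 with a single library left. The hairpins' mean share of counts (7.24%) became 4.08% or 10.4% with 1 library left, and Mir127's mean share of the group (53.5%) 47.2% or 59.8%. Removal of Mir206, chosen after seeing the data, left 8 hairpins higher, with a share of 8.20%. This removal left the hairpins' median log2 ratio with TMM at 3.72, so it barely changed the scaling and could hardly change the calls. Mir337 and Mir136 fell to 0.00221% and 0% of the group with either-strand counts. No paired analysis was possible because there is a single group. The binomial tests use counting error alone, while the spread between the 2 replicates is a coefficient of variation of 1.24 (edgeR).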
